A study of Mus musculus with 20 samples.

Results

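Microglia are the resident macrophages of the brain. They derive from the yolk sac, depend on the receptor for colony-stimulating factor 1 for survival, and survey neural tissue with motile processes. In the hypothalamus they lie among the neurons that govern food intake and body weight, and they are known to respond to diet. The 30 genes described here were taken by name as genes of microglia and related myeloid cells and not by a threshold on their values. All 30 were matched by symbol to 1 row each of the deposited count table of 55471 genes, and all 30 passed the filter on low counts that left 17893 genes for testing.

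The libraries were made from hypothalamus slices of wild type C57BL/6 mice, and all groups shared that strain, genotype and tissue. RISP_PF comprised 6 libraries from mice given a diet with risperidone, an antipsychotic that blocks dopamine and serotonin receptors, under pair-feeding, where the ration is set by what a comparison group eats. RISP_Ad.lib comprised 7 libraries from mice that ate the risperidone diet freely, and CON_Ad.lib comprised 7 libraries from mice that ate a control diet freely. The risperidone diet lasted 4 weeks, per the labels, whose wording on body weight equal to that of control mice does not settle which risperidone groups it covers. The series title ties the study to melanocortin 4 receptors and weight gain. RISP_Ad.lib against CON_Ad.lib compares the diets under free feeding, and RISP_PF against RISP_Ad.lib compares the feeding conditions on risperidone. No group was pair-fed without risperidone. Drug and feeding therefore cannot be told apart in RISP_PF against CON_Ad.lib, or fully in the mean of both risperidone groups against CON_Ad.lib. Whether every library is a different mouse is not stated in the labels, and the p-values therefore cover only the spread seen between libraries, which can be partly technical.

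In 19 libraries the counts summed to between 17316043 and 18606543, and in RISP_Ad.lib_3 to 9748005. Annotated ribosomal RNA genes took 22.1% of the counts of RISP_Ad.lib_3, against 2.25% to 5.18% elsewhere. The summed level of 10 markers of cortex and hippocampus was 1577 CPM (counts scaled to the library's size, with the trimmed mean of M values, TMM) in RISP_Ad.lib_1, against 431 to 558 CPM in the other libraries. Summed over 10 markers of hypothalamic neurons the level was 872 to 1350 CPM in RISP_PF, 525 to 1363 CPM in RISP_Ad.lib and 1185 to 1574 CPM in CON_Ad.lib. The library RISP_PF_1 stood apart on the microglia genes themselves, as given below. Many of the counts and called genes that move without these libraries are given without them as well, and others are given with all libraries only.

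Because C1qb and C1qc, genes of complement C1q, vary together across the libraries and because PU.1, the product of the member Spi1, is known to bind purine-rich sites near myeloid genes, promoters of 4 members are shown. They span 250 bases before to 50 bases after the annotated start and come from RefSeq on GRCm38.p6, of which 23 of the 30 members had a matching entry. Capitals mark the letters GAGGAAGT, a site of the PU.1 type, or ACTTCCTC, the same site read on the other strand. C1qb lies at chr4:136886151-136886450 and C1qc at chr4:136892865-136893164, both on the minus strand, while Inpp5d lies at chr1:87620062-87620361 and Apbb1ip at chr2:22774077-22774376, both on the plus strand.
C1qb: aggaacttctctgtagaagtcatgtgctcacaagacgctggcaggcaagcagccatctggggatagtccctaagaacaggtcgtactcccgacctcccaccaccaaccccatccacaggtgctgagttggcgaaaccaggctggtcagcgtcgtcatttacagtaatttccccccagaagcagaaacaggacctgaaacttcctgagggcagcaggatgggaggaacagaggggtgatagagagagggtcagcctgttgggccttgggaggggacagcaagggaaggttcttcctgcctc
C1qc: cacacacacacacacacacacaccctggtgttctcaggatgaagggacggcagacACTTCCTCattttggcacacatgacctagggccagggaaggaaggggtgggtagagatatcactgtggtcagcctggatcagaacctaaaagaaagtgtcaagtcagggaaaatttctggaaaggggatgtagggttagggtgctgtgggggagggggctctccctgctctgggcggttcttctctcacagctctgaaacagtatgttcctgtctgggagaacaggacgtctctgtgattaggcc
Inpp5d: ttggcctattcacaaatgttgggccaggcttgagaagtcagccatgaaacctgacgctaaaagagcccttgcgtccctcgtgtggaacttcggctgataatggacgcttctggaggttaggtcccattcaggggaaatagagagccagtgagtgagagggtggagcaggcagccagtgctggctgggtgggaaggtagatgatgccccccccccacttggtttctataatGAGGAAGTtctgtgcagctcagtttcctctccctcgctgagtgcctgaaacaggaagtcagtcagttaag
Apbb1ip: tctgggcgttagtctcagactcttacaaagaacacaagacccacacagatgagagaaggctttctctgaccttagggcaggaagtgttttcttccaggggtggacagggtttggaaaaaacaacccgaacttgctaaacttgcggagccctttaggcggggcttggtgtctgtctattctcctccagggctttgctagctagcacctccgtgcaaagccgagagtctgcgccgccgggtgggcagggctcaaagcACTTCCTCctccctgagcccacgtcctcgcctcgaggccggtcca
The first letter of the site stood 20 bases before the start in Inpp5d, 195 bases before it in C1qc and 5 bases after it in Apbb1ip. In the C1qb window these letters did not occur. Among the 23 matched members, 5 held the site on either strand, namely Apbb1ip, C1qc, Cd53, Ctss and Inpp5d, which is 21.7% of them, against 3.69% of the 27025 genes with a promoter of that length in the table. A match describes the letters and does not show binding, and no other motif was searched.

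The microglia genes covered a wide range of levels in the hypothalamus, with the C1q genes and the protease gene Ctss at the top and Spi1, Itgam, Apbb1ip, Irf8 and Ptprc at the bottom. Levels between genes are compared per kilobase of exon (CPM per kb). The length used is that of all annotated exons of a gene merged, which can be longer than a single transcript. The order therefore rests in part on the annotation. In CON_Ad.lib the highest was C1qb, with 37.7 ± 6.5 CPM per kb (SD, n = 7), followed by C1qa with 30.1 ± 4.42, Ctss with 26.7 ± 4.64 and C1qc with 16.4 ± 2.04 CPM per kb. By this measure the lowest was Ptprc, which encodes the leukocyte antigen CD45, with 0.177 ± 0.043 CPM per kb. Its merged exons hold 18313 bases. Not divided by length, Ptprc had 3.24 CPM in CON_Ad.lib, above Aif1 with 2.06 CPM and Spi1 with 1.9 CPM.

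**Figure D1:**
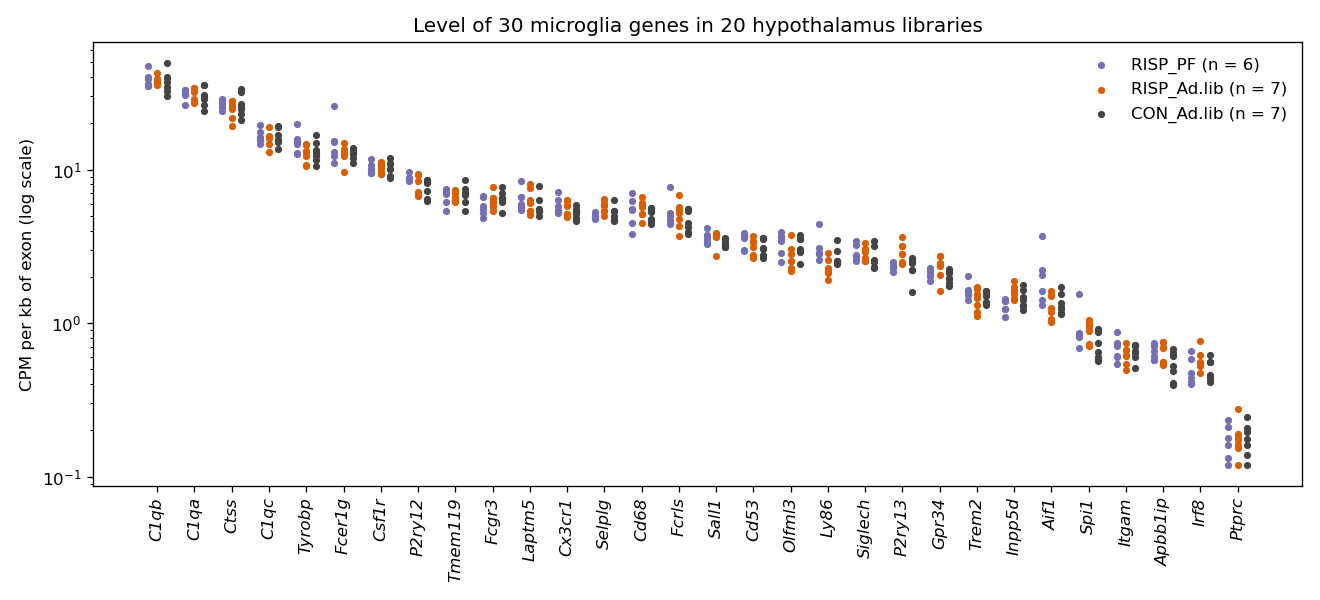
Level of each of the 30 microglia genes in CPM per kb of exon (log axis), ordered by the CON_Ad.lib mean, with 1 point per library and the groups RISP_PF, RISP_Ad.lib and CON_Ad.lib side by side. C1qb leads and Ptprc is lowest, and for every gene the points of the 3 groups overlap.

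Between neighbours in this order the CON_Ad.lib ranges overlapped except at 6 steps. These lay between Ctss and C1qc, between Csf1r and P2ry12, between Fcrls and Sall1, between Gpr34 and Trem2, between Aif1 and Spi1, and between Irf8 and Ptprc. Thus C1qb, C1qa and Ctss formed the top step, and C1qc, Tyrobp, Fcer1g and Csf1r the next. The 8 genes from P2ry12 to Fcrls, which include Tmem119 and Cx3cr1, held no neighbours whose ranges were apart, and the same was true of the 7 genes from Sall1 to Gpr34. Genes that are not neighbours can overlap across a step. Inpp5d, which ranks below Trem2, reached 1.77 CPM per kb, above the lowest Gpr34 value of 1.74.

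The 30 genes together took 0.0437% to 0.0549% of the counts in RISP_PF, 0.0312% to 0.0525% in RISP_Ad.lib, where RISP_Ad.lib_3 was lowest, and 0.0408% to 0.0564% in CON_Ad.lib. After TMM scaling their summed level was 432 to 543 CPM in RISP_PF (mean 480 ± 41.3, n = 6), 429 to 513 CPM in RISP_Ad.lib (466 ± 31.3, n = 7) and 403 to 549 CPM in CON_Ad.lib (459 ± 50.5, n = 7). These ranges overlap, and the means differ by less than the SD within a group. In bulk tissue, fewer microglia and less RNA per microglia cannot be told apart.

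**Figure D2:**
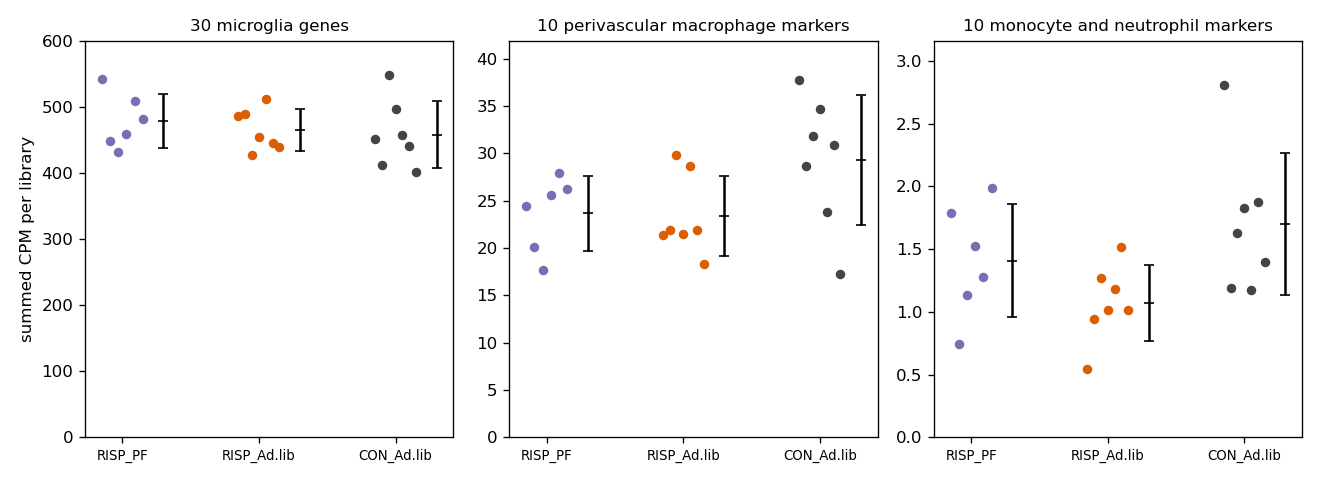
Summed CPM per library of the 30 microglia genes, of 10 markers of perivascular macrophages and of 10 markers of monocytes and neutrophils, with 1 point per library and the mean and SD beside each group. The microglia sums lie between 403 and 549 CPM in all groups, whereas the perivascular macrophage sums lie between 17.3 and 37.7 CPM and the monocyte and neutrophil sums between 0.544 and 2.81 CPM. Stab1 is the largest part of the perivascular macrophage sums.

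Markers of other myeloid cells were measured beside them. Summed over 10 perivascular macrophage markers, the level was 17.6 to 27.9 CPM in RISP_PF (mean 23.7), 18.3 to 29.9 CPM in RISP_Ad.lib (mean 23.4) and 17.3 to 37.7 CPM in CON_Ad.lib (mean 29.3). Stab1 was the largest part of this sum, with 22.1 of 37.7 CPM in CON_Ad.lib_1 and 15.3 of 24.4 CPM in RISP_PF_1. All 6 tested genes of that list had a log2 difference below 0 against CON_Ad.lib, with a median of -0.38 in RISP_PF and -0.55 in RISP_Ad.lib, and 0 passed the threshold, while 2 in RISP_PF and 4 in RISP_Ad.lib had an unadjusted edgeR p under 0.05, against 6.66% and 13.1% of all genes. Without RISP_Ad.lib_1 and RISP_Ad.lib_3, 6 of 7 tested were below 0 in RISP_Ad.lib against CON_Ad.lib (median -0.376), 4 with such a p. Without RISP_PF_1, 6 of 7 were below 0 in RISP_PF against CON_Ad.lib (median -0.298), 1 with such a p. Other markers moved the same way in RISP_Ad.lib against CON_Ad.lib, where 8 of 10 pericyte and fibroblast markers (median -0.36) and 9 of 10 ependyma and tanycyte markers (median -0.27) were below 0, and in RISP_PF against CON_Ad.lib 6 of 10 (median -0.03) and 8 of 10 (median -0.08) were, with 0 past the threshold in these lists. Without RISP_PF_1 the pericyte and fibroblast count in RISP_PF against CON_Ad.lib was 9 of 10 (median -0.057). The ependyma and tanycyte count was 7 of 10 (median -0.063). Of the 10 markers of hypothalamic neurons, 10 were below 0 in RISP_Ad.lib against CON_Ad.lib (median -0.411), and 7 had an unadjusted edgeR p under 0.05. Without RISP_Ad.lib_1 and RISP_Ad.lib_3 it was again 10 (median -0.425) and 7, and 0 passed the threshold in either fit. In RISP_PF against CON_Ad.lib 9 of 10 were below 0 (median -0.191). Oligodendrocyte markers went the other way, with 10 of 10 above 0 in both comparisons. Markers of monocytes and neutrophils summed to 0.745 to 1.98 CPM in RISP_PF, 0.544 to 1.52 CPM in RISP_Ad.lib and 1.17 to 2.81 CPM in CON_Ad.lib, and markers of lymphocytes to at most 2.28 CPM in any library. Markers of blood leukocytes were thus near 0 next to the microglia genes, and Retnlg, a neutrophil gene, had no count in 16 of 20 libraries, and Cd3d, a T cell gene, in 14. The part of the perivascular macrophages in the members that both cell types express was not tested.

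No microglia gene differed between the groups at a Benjamini-Hochberg adjusted p under 0.05 in the quasi-likelihood F test of edgeR, in any of the 4 comparisons. In RISP_PF against CON_Ad.lib 0 of 30 passed, against 0.486% of all genes tested. In RISP_Ad.lib against CON_Ad.lib 0 of 30 passed, against 0.0615% of all genes, in RISP_PF against RISP_Ad.lib 0 of 30, against 0.397%, and for the mean of both risperidone groups against CON_Ad.lib 0 of 30, against 0.33%. With so small a share of all genes called, 0 of 30 is close to the background. DESeq2 and limma-voom with quality weights also called 0 members in each comparison.

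At an unadjusted p under 0.05, edgeR counted 4 members in RISP_PF against CON_Ad.lib, all higher, which is 13.3% of the members, and 2 without RISP_PF_1. Of all genes 6.66% had such a p, and 3.06% with a higher level. In RISP_Ad.lib against CON_Ad.lib it counted 4, all higher, or 13.3% against 13.1% of all genes (7.14% higher), and 2 without RISP_Ad.lib_1 and RISP_Ad.lib_3. Between RISP_PF and RISP_Ad.lib it counted 7, of which 4 were higher and 3 lower in RISP_PF, or 23.3% against 13.5% of all genes (6.09% higher and 7.44% lower), and 6 without RISP_PF_1. Without RISP_Ad.lib_1 and RISP_Ad.lib_3 it counted 3 higher and 3 lower. For the mean of both risperidone groups it counted 2, both higher, or 6.67% against 7.82% of all genes (3.55% higher), and 3 without RISP_Ad.lib_1 and RISP_Ad.lib_3. Leaving out 1 library at a time gave 1 to 8, 2 to 6, 5 to 8 and 1 to 6 in the same order of comparisons. In RISP_PF against CON_Ad.lib the count was 7 without RISP_PF_4, 2 without CON_Ad.lib_2, 8 without CON_Ad.lib_3 and 1 without CON_Ad.lib_6. In RISP_Ad.lib against CON_Ad.lib it was 2 without each of RISP_Ad.lib_2, RISP_Ad.lib_3, CON_Ad.lib_2 and CON_Ad.lib_6. For the mean of both it was 4 without RISP_PF_2 or CON_Ad.lib_4, 6 without CON_Ad.lib_3, and 1 without CON_Ad.lib_5, CON_Ad.lib_6 or CON_Ad.lib_7. With all libraries, DESeq2 counted 4, 4, 7 and 2, and limma-voom 4, 3, 8 and 3. No member separated the groups, as 0 of 30 had CPM ranges that did not overlap in any comparison, against 1.2% of all genes in RISP_PF against CON_Ad.lib, 0.33% in RISP_Ad.lib against CON_Ad.lib, 0.632% between the risperidone groups and 0.0671% for both risperidone groups against CON_Ad.lib.

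The 95% intervals say how large a difference these libraries leave room for. In RISP_PF against CON_Ad.lib the whole interval lay within 0.5 on the log2 scale either way (1.41-fold) for 26 of 30 members, and the exceptions were Aif1, Spi1, Fcer1g and Apbb1ip. In RISP_Ad.lib against CON_Ad.lib it did so for 27, all but Spi1, P2ry13 and Apbb1ip, and between RISP_PF and RISP_Ad.lib for 25, all but Aif1, Ly86, Fcer1g, P2ry13 and Olfml3. From the estimate to either end of its interval the median distance was 0.208, 0.203 and 0.21 log2 units in these comparisons.

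**Figure D3:**
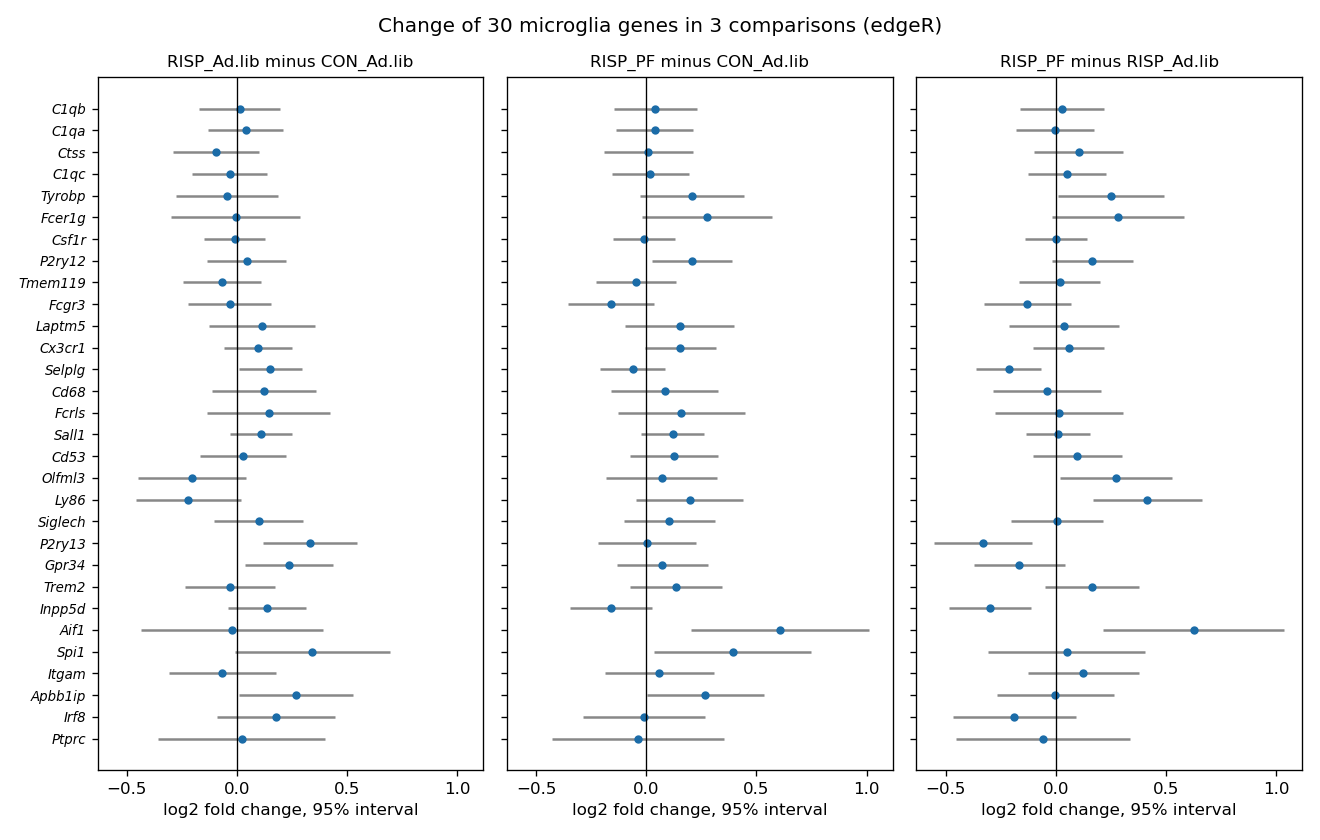
Log2 fold change (points) with its 95% interval (lines) of the 30 microglia genes in RISP_Ad.lib minus CON_Ad.lib, RISP_PF minus CON_Ad.lib and RISP_PF minus RISP_Ad.lib, from the edgeR fit. Most points lie near 0, and the widest departure is Aif1, at 0.60 in RISP_PF minus CON_Ad.lib and 0.63 in RISP_PF minus RISP_Ad.lib.

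The median difference of the members was at most 0.08 on the log2 scale. In RISP_PF against CON_Ad.lib 23 of 30 differences were above 0, with a median of 0.08, against 51.5% of all genes and a median of 0.00. Without RISP_PF_1 17 of 30 were above 0 (median 0.03), and between RISP_PF and RISP_Ad.lib 16 of 30 were (median 0.00). With all libraries, 18 of 30 were above 0 in RISP_Ad.lib against CON_Ad.lib (median 0.03), against 52.9% of all genes, and between RISP_PF and RISP_Ad.lib 20 of 30 (median 0.02), against 48.4%. For the mean of both risperidone groups 20 of 30 were above 0 (median 0.08), against 53.4% of all genes, and 19 of 30 (median 0.03) without RISP_PF_1. Without RISP_Ad.lib_1 and RISP_Ad.lib_3 the count was 20 in RISP_Ad.lib against CON_Ad.lib. It was then 22 between the risperidone groups and 21 for the mean of both. These comparisons share libraries, so the counts are not independent of each other.

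The receptors that let microglia sense their surroundings are P2ry12 and P2ry13, which respond to nucleotides released by damaged or active cells, Cx3cr1, the receptor for the neuronal chemokine fractalkine, and Gpr34, a receptor for lysophosphatidylserine. All 4 had a difference above 0 against CON_Ad.lib in both risperidone groups, and none passed the threshold. Some of these were close to 0, as for P2ry13 in RISP_PF (0.003 ± 0.108, SE) and P2ry12 in RISP_Ad.lib (0.04 ± 0.09). P2ry13 had the smallest p of the members in RISP_Ad.lib against CON_Ad.lib. Its lowest, median and highest values were 5.44, 5.86 and 6.35 CPM in RISP_PF, 6.11, 7.11 and 9.25 CPM in RISP_Ad.lib, and 4.06, 6.25 and 6.68 CPM in CON_Ad.lib. The RISP_Ad.lib values were thus the highest of the 3 groups, with ranges that still overlapped those of the others. The log2 difference between RISP_Ad.lib and CON_Ad.lib was 0.33 ± 0.10 (SE), an edgeR adjusted p of 0.201, and all 7 RISP_Ad.lib libraries lay above the CON_Ad.lib mean. Without RISP_Ad.lib_1 and RISP_Ad.lib_3 it was 0.24. Between RISP_PF and RISP_Ad.lib P2ry13 had a difference of -0.33 ± 0.11, with an edgeR adjusted p of 0.209.

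P2ry12 lies beside P2ry13 on the minus strand of chromosome 3 (chr3:59216272-59262871 and chr3:59207892-59210882, GRCm38). Its values were 21.4, 22.1 and 24.7 CPM in RISP_PF, 17.0, 18.2 and 23.7 CPM in RISP_Ad.lib, and 15.8, 20.7 and 21.7 CPM in CON_Ad.lib. All 6 RISP_PF libraries lay above the CON_Ad.lib mean, with a log2 difference of 0.21 ± 0.09 and an edgeR adjusted p of 0.635. Gpr34 had 3.95, 4.44 and 4.79 CPM in RISP_PF, 3.38, 5.09 and 5.7 CPM in RISP_Ad.lib, and 3.63, 4.08 and 4.71 CPM in CON_Ad.lib. RISP_Ad.lib held both the lowest and the highest Gpr34 value, and its difference from CON_Ad.lib was 0.24 ± 0.10 with an edgeR adjusted p of 0.306. For Cx3cr1 the mean was 26.4 ± 3.27 CPM in RISP_PF, 25.4 ± 2.57 CPM in RISP_Ad.lib and 23.7 ± 1.88 CPM in CON_Ad.lib (SD, n = 6, 7 and 7), and the edgeR adjusted p was 0.767 for RISP_PF against CON_Ad.lib. Both P2ry13 and P2ry12 overlap the span of Med12l on the opposite strand, and 9 exonic bases of P2ry12 and 0 of P2ry13 are shared with its exons.

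**Figure D4:**
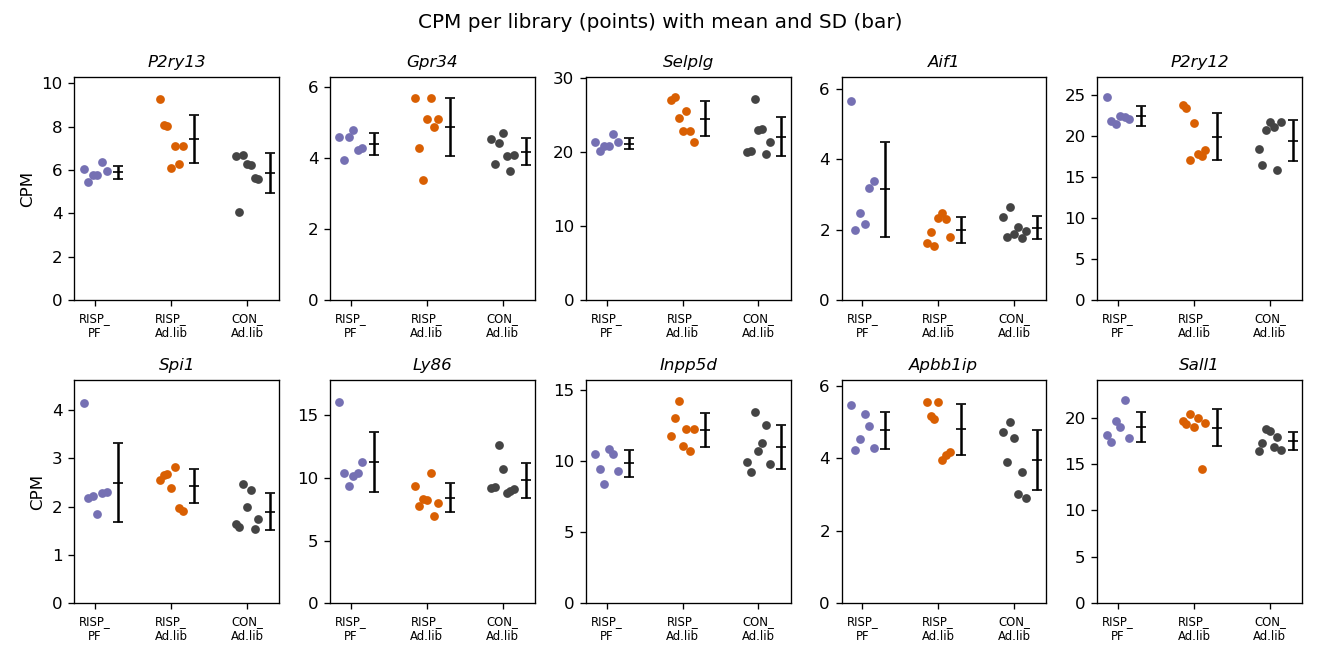
CPM per library (points) with the mean and SD (bar) of the 10 members that had 1 of the 3 smallest p in any comparison, with RISP_PF, RISP_Ad.lib and CON_Ad.lib from left to right. The groups overlap in each panel, and RISP_PF_1, the leftmost RISP_PF point, is the highest value for Aif1, P2ry12, Spi1 and Ly86.

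The genes grouped here as microglial identity genes, most of them for surface proteins, did not differ in RNA level between the groups beyond the threshold. Tmem119, a membrane protein of resting microglia, averaged 15.5 ± 1.84 CPM in RISP_PF, 15.3 ± 1.02 CPM in RISP_Ad.lib and 16.0 ± 2.28 CPM in CON_Ad.lib. Its log2 difference from CON_Ad.lib was -0.05 in RISP_PF, with an interval from -0.23 to 0.14, and -0.07 in RISP_Ad.lib, with an interval from -0.24 to 0.11. Selplg, which encodes the P-selectin ligand, had 20.2, 21.1 and 22.5 CPM in RISP_PF, 21.4, 24.6 and 27.5 CPM in RISP_Ad.lib, and 19.7, 21.4 and 27.2 CPM in CON_Ad.lib. RISP_Ad.lib had the highest median, and the log2 difference was 0.15 ± 0.07 between RISP_Ad.lib and CON_Ad.lib (edgeR adjusted p of 0.347) and -0.21 ± 0.07 between RISP_PF and RISP_Ad.lib (edgeR adjusted p of 0.216). Siglech, a sialic acid-binding lectin, and Fcrls, an Fc receptor-like protein, had differences between 0.01 and 0.16 in the 3 comparisons. Olfml3, a secreted protein, averaged 20.5 ± 3.32 CPM in RISP_PF, 16.9 ± 3.25 CPM in RISP_Ad.lib and 19.5 ± 2.86 CPM in CON_Ad.lib, and its difference between RISP_PF and RISP_Ad.lib was 0.27 ± 0.12, with an edgeR adjusted p of 0.343.

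Csf1r, the receptor whose signal microglia need to survive, was the member with the most precise estimate. It averaged 58.9 ± 5.04 CPM in RISP_PF, 58.8 ± 4.18 CPM in RISP_Ad.lib and 59.3 ± 6.45 CPM in CON_Ad.lib. Its log2 difference from CON_Ad.lib was -0.01 in both risperidone groups, with an interval from -0.15 to 0.13 in each. Of its exonic bases, 15.1% are shared with Hmgxb3 on the opposite strand, and the strand setting of the counting is not given in the sources used here, so part of these counts may belong to Hmgxb3.

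Among the transcription factors, Spi1, which encodes PU.1 and specifies the myeloid lineage, had the smallest p of the members for the mean of both risperidone groups. Its values were 1.85, 2.25 and 4.14 CPM in RISP_PF, 1.91, 2.54 and 2.82 CPM in RISP_Ad.lib, and 1.53, 1.73 and 2.47 CPM in CON_Ad.lib. RISP_PF_1 alone gave the value of 4.14 CPM, and the next RISP_PF library had 2.31 CPM. The mean of both risperidone groups stood 0.37 ± 0.15 above CON_Ad.lib on the log2 scale, with an edgeR adjusted p of 0.525, and 12 of 13 risperidone libraries lay above the CON_Ad.lib mean. For RISP_PF against CON_Ad.lib the difference was 0.39 ± 0.17 (edgeR adjusted p of 0.682), and 0.19 without RISP_PF_1. Sall1, a repressor that keeps microglia from taking on the profile of other macrophages, had 17.4, 18.6 and 21.9 CPM in RISP_PF, 14.5, 19.5 and 20.4 CPM in RISP_Ad.lib, and 16.4, 17.3 and 18.7 CPM in CON_Ad.lib. The lowest and the highest Sall1 value were both from risperidone libraries, of which 11 of 13 lay above the CON_Ad.lib mean, and the difference of the mean of both risperidone groups was 0.11 ± 0.06 with an edgeR adjusted p of 0.652. Irf8, an interferon regulatory factor of myeloid cells, had differences of -0.01 in RISP_PF and 0.18 in RISP_Ad.lib against CON_Ad.lib.

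The C1q chains form the molecule that starts the classical complement pathway, which microglia make in the brain and which tags synapses for removal. Their genes lie side by side on the minus strand of chromosome 4, with C1qb at chr4:136880129-136886187, C1qc at chr4:136889804-136893065 and C1qa at chr4:136895917-136898803 (GRCm38). C1qa averaged 32.2 ± 2.63 CPM in RISP_PF, 32.1 ± 3.11 CPM in RISP_Ad.lib and 31.3 ± 4.6 CPM in CON_Ad.lib. For C1qb the means were 42.2 ± 5.07 CPM in RISP_PF, 41.4 ± 2.48 CPM in RISP_Ad.lib and 41.0 ± 7.08 CPM in CON_Ad.lib. For C1qc they were 32.0 ± 3.42 CPM in RISP_PF, 30.7 ± 3.46 CPM in RISP_Ad.lib and 31.6 ± 3.93 CPM in CON_Ad.lib. The 3 chains thus stood at nearly the same level in every group, with log2 differences from -0.03 to 0.05 in the 3 comparisons, and the interval of each lay within 0.5 log2 units.

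While the C1q genes did not separate the groups, 2 of their 3 pairs varied together from library to library by Pearson's r, and C1qa and C1qb passed by Spearman's rho only. Pairs of members chosen without regard to function were not compared, so whether this is particular to C1q was not tested. Log2 CPM with the group mean removed was compared over the 20 libraries for 6 pairs of members whose products act together or whose genes are neighbours, with permutation within groups and adjustment over the 6 pairs. For C1qa and C1qc Pearson's r was 0.77 (permutation p of 0.00036, adjusted p of 0.00216) and Spearman's rho was 0.75 (permutation p of 0.00057, adjusted p of 0.00342). Without the 2 libraries farthest from the C1qa median, r was 0.74. For C1qb and C1qc r was 0.70 (permutation p of 0.00113, adjusted p of 0.00339), rho was 0.67 (permutation p of 0.00279, adjusted p of 0.00837), and r was 0.55 without the 2 farthest libraries. C1qa and C1qb had an r of 0.54, with a permutation p of 0.0367 and an adjusted p of 0.0551, and a rho of 0.53, with a permutation p of 0.0304 and an adjusted p of 0.0456, and r was 0.44 without the 2 farthest libraries.

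**Figure D5:**
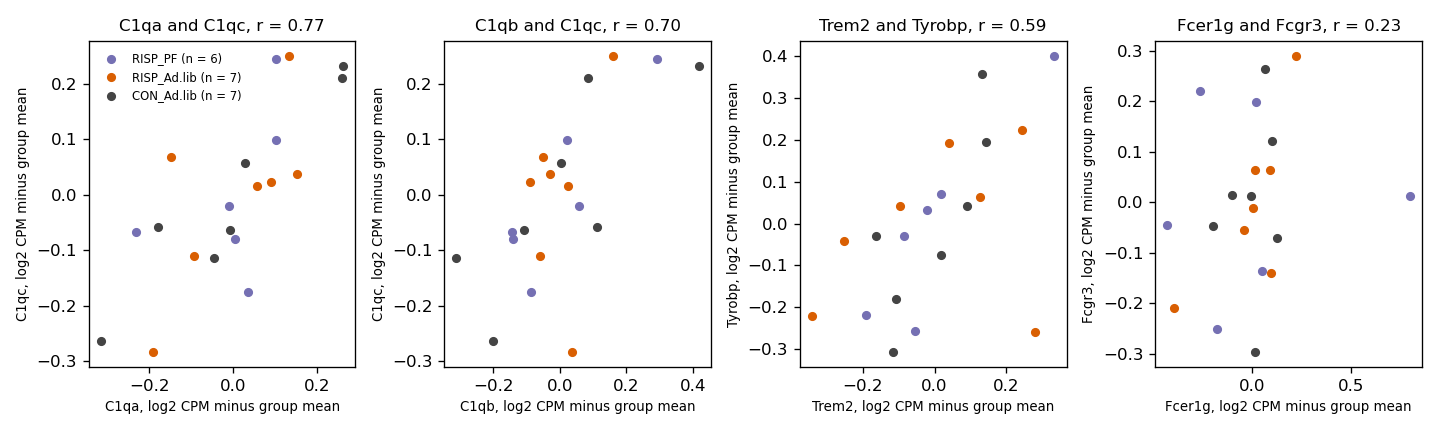
Log2 CPM minus the group mean in 20 libraries for C1qa and C1qc, C1qb and C1qc, Trem2 and Tyrobp, and Fcer1g and Fcgr3, with 1 point per library coloured by group. The 2 C1q pairs shown follow a common line (r of 0.77 and 0.70), Trem2 and Tyrobp a looser one (0.59), and Fcer1g and Fcgr3 none (0.23). The third C1q pair, C1qa and C1qb, is not shown and had an r of 0.54.

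Trem2, a lipid receptor, signals through the adaptor encoded by Tyrobp. Over the 20 libraries this pair had an r of 0.59 (permutation p of 0.00751, adjusted p of 0.015) and a rho of 0.61 (permutation p of 0.00812, adjusted p of 0.0162). Without the 2 libraries farthest from the Trem2 median, RISP_PF_1 and RISP_Ad.lib_3, r was 0.43 with a permutation p of 0.0849, so at that step the relation rests on those libraries, and without RISP_PF_1 alone its adjusted permutation p was 0.0907. Without RISP_Ad.lib_2 r was 0.82, with an adjusted permutation p of 0.00024, and the adjusted p stayed under 0.05 in 22 of 23 alternatives. P2ry12 and P2ry13 had an r of 0.49 (permutation p of 0.069, adjusted p of 0.0828) and a rho of 0.46 (permutation p of 0.082, adjusted p of 0.0984), and r was 0.42 without the 2 farthest libraries. Fcer1g and Fcgr3 had an r of 0.23 (permutation p of 0.42, adjusted p of 0.42) and a rho of 0.30 (permutation p of 0.219, adjusted p of 0.219), and r was 0.33 without the 2 farthest libraries. These correlations say that a library high in 1 gene of a pair tended to be high in the other, and all genes of a library share its depth and tissue content.

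Trem2 averaged 8.02 ± 1.07 CPM in RISP_PF, 7.07 ± 1.17 CPM in RISP_Ad.lib and 7.31 ± 0.656 CPM in CON_Ad.lib, and Tyrobp 10.1 ± 1.76 CPM in RISP_PF, 8.45 ± 1.1 CPM in RISP_Ad.lib and 8.77 ± 1.41 CPM in CON_Ad.lib. Fcer1g, the common signalling chain of Fc receptors, had 9.61, 12.3 and 22.7 CPM in RISP_PF, 8.38, 11.2 and 12.9 CPM in RISP_Ad.lib, and 9.67, 11.2 and 12.1 CPM in CON_Ad.lib. The value of 22.7 CPM was that of RISP_PF_1. Fcgr3, a low-affinity receptor for immunoglobulin G, had log2 differences from CON_Ad.lib of -0.16 in RISP_PF and -0.03 in RISP_Ad.lib. Inpp5d encodes the phosphatase SHIP1, which dampens signals from these receptors. Its values were 8.37, 9.98 and 10.9 CPM in RISP_PF, 10.7, 12.3 and 14.2 CPM in RISP_Ad.lib, and 9.25, 10.7 and 13.5 CPM in CON_Ad.lib. RISP_PF was lowest and RISP_Ad.lib highest, with ranges that overlapped between 10.7 and 10.9 CPM, and the log2 difference between them was -0.30 ± 0.09, with an edgeR adjusted p of 0.173 and all 6 RISP_PF libraries below the RISP_Ad.lib mean.

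Of the 3 lysosomal genes 0 passed the threshold. Ctss, the protease cathepsin S, averaged 36.4 ± 2.46 CPM in RISP_PF, 33.7 ± 4.41 CPM in RISP_Ad.lib and 36.2 ± 6.3 CPM in CON_Ad.lib. Cd68, a glycoprotein of the lysosomal membrane that is used as a sign of phagocytic activity, averaged 6.8 ± 1.43 CPM in RISP_PF, 7.0 ± 0.893 CPM in RISP_Ad.lib and 6.42 ± 0.63 CPM in CON_Ad.lib. Laptm5, another protein of the lysosomal membrane, had log2 differences from CON_Ad.lib of 0.15 in RISP_PF and 0.11 in RISP_Ad.lib. The smallest edgeR adjusted p among these 3 genes in any of the 4 comparisons was 0.654.

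In the comparisons of RISP_PF the widest difference was that of Aif1, whereas Spi1 (0.34) and P2ry13 (0.33) were widest in RISP_Ad.lib against CON_Ad.lib. Aif1 encodes IBA1, the actin-binding protein used to stain microglia. Its values were 2.0, 2.83 and 5.65 CPM in RISP_PF, 1.55, 1.93 and 2.48 CPM in RISP_Ad.lib, and 1.76, 1.96 and 2.63 CPM in CON_Ad.lib. The top value came from RISP_PF_1, and 2 further RISP_PF libraries, at 3.17 and 3.38 CPM, lay above the highest CON_Ad.lib library. Against CON_Ad.lib the RISP_PF difference was 0.60 ± 0.19 with an edgeR adjusted p of 0.331, and 5 of 6 libraries lay above the CON_Ad.lib mean. Without RISP_PF_1 it was 0.36, with an unadjusted p of 0.0316 and an edgeR adjusted p of 0.807. Between RISP_PF and RISP_Ad.lib the Aif1 difference was 0.63 ± 0.20 (edgeR adjusted p of 0.193), and 0.38 without RISP_PF_1. Aif1 rested on few reads, with 11 to 101 counts per library.

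Ly86, a secreted partner of a Toll-like receptor homologue, had the smallest p of the members between RISP_PF and RISP_Ad.lib. Its values were 9.34, 10.4 and 16.0 CPM in RISP_PF, 6.97, 8.2 and 10.4 CPM in RISP_Ad.lib, and 8.82, 9.22 and 12.6 CPM in CON_Ad.lib. The log2 difference between the risperidone groups was 0.42 ± 0.12, with an edgeR adjusted p of 0.146 and all 6 RISP_PF libraries above the RISP_Ad.lib mean, and 0.29 without RISP_PF_1. Apbb1ip, an adaptor that activates integrins, had 4.24, 4.72 and 5.48 CPM in RISP_PF, 3.95, 5.07 and 5.56 CPM in RISP_Ad.lib, and 2.91, 3.89 and 5.0 CPM in CON_Ad.lib. The 4 lowest values were all in CON_Ad.lib, and the mean of both risperidone groups stood 0.27 ± 0.11 above CON_Ad.lib on the log2 scale, with an edgeR adjusted p of 0.527 and 12 of 13 libraries above the CON_Ad.lib mean. Itgam, the integrin chain CD11b, Cd53, a tetraspanin, and Ptprc had differences from CON_Ad.lib between -0.07 and 0.13 in the risperidone groups. Itgam shares 68.7% of its exonic bases with the predicted gene Gm49368 on the same strand, which held 4 counts over all libraries. How reads on shared bases were counted is not given in the sources used here, so the level of Itgam may be an undercount and its place in the order is uncertain.

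For some members RISP_PF_1 stood apart from the other RISP_PF libraries. It held the highest of the 20 values for 13 of 30 members, against at most 6 in any other library, and its summed level of 543 CPM was above the 432 to 510 CPM of the other RISP_PF libraries. Other libraries of the group varied too, as RISP_PF_5 was above the RISP_PF median for 26 members, like RISP_PF_1, and RISP_PF_3 for 2. The genes that stood highest there were in part outside the 30 members. Ranked by the margin over the next library among the 15860 genes with a mean of at least 1 CPM, the first 3 were Cd52 with 5.76 CPM (next 2.07), Rac2 with 8.33 CPM (next 3.38) and Adgre1 with 8.39 CPM (next 3.52), which encode a leukocyte surface glycoprotein, a GTPase of blood cells and the macrophage antigen F4/80. Members were not uniformly high in it. P2ry12 (24.7 CPM) and Fcrls (18.01 CPM) had their highest value of all there, whereas Cx3cr1 at 24.7 CPM, Tmem119 at 14.2 CPM and Sall1 at 18.2 CPM lay within the ranges of the other RISP_PF libraries. In RISP_PF_1 the sum of perivascular macrophage markers, chiefly Stab1, was 24.4 CPM and that of monocyte and neutrophil markers 1.79 CPM, both within the RISP_PF range. The part of RISP_PF_1 in the differences of Aif1, Spi1 and Ly86 is given by the values without it above.

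Libraries of CON_Ad.lib varied as well. CON_Ad.lib_3 was above its group's median for 29 of 30 members, while CON_Ad.lib_2 and CON_Ad.lib_7 were above it for 1 member each. The summed levels of these libraries were 549, 412 and 403 CPM. RISP_Ad.lib_3, the library with the fewest counts, held the lowest of the 20 values for 8 members.

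Genes beyond the 30 members gave the setting in which microglia were measured. Of 30 other genes of microglia and myeloid cells, 0 passed the threshold with edgeR in each comparison, against the shares of all genes given above, and at an unadjusted p under 0.05 there were 3 in RISP_PF against CON_Ad.lib, 4 in RISP_Ad.lib against CON_Ad.lib and 2 between the risperidone groups. Without RISP_Ad.lib_1 and RISP_Ad.lib_3, Tlr7, a receptor for RNA, passed in RISP_PF against CON_Ad.lib, with a log2 difference of -0.58 and an edgeR adjusted p of 0.0386. Of 21 tested genes of activated microglia 0 passed in each comparison. At an unadjusted p under 0.05 there were 0 in RISP_PF against CON_Ad.lib, 6 in RISP_Ad.lib against CON_Ad.lib (1 higher and 5 lower) and 6 between the risperidone groups, all higher in RISP_PF, against 6.66%, 13.1% and 13.5% of all genes. Between the risperidone groups the count was 3 without RISP_PF_1 and 2 without RISP_Ad.lib_1 and RISP_Ad.lib_3, and without the last pair it was 3, all lower, in RISP_Ad.lib against CON_Ad.lib. Apoe, which activated microglia and astrocytes both make, averaged 1976 ± 137 CPM in RISP_PF, 1884 ± 153 CPM in RISP_Ad.lib and 1973 ± 111 CPM in CON_Ad.lib. Of 11 tested complement genes outside C1q 0 passed, with unadjusted counts of 2, 3 and 1.

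Among genes of microglial survival and of signals between neurons and microglia, 1 of 15 tested passed in each comparison but RISP_Ad.lib against CON_Ad.lib. The shares of all genes were 0.486% in RISP_PF against CON_Ad.lib, 0.397% between the risperidone groups and 0.33% for the mean of both. Mertk, a receptor tyrosine kinase for the uptake of dying cells that astrocytes express as well, fell to 21.7, 24.1 and 26.9 CPM (lowest, median and highest) in RISP_PF, against 28.6, 36.7 and 49.8 CPM in RISP_Ad.lib and 36.9, 40.4 and 42.3 CPM in CON_Ad.lib. All RISP_PF libraries lay below all others. The log2 difference was -0.73 ± 0.09 from CON_Ad.lib (edgeR adjusted p of 4.65e-05) and -0.62 ± 0.09 from RISP_Ad.lib (edgeR adjusted p of 0.000844). For the mean of both risperidone groups against CON_Ad.lib it was -0.42 (edgeR adjusted p of 0.00471). Of 12 tested inflammatory mediators 1 passed in RISP_PF against CON_Ad.lib, against 0.486% of all genes. The same gene passed for the mean of both risperidone groups, against 0.33% of all genes. This was Nfkbia, the inhibitor of NF-kappaB, which fell to 23.3 ± 1.38 CPM in RISP_PF, against 27.9 ± 2.6 CPM in RISP_Ad.lib and 33.7 ± 2.14 CPM in CON_Ad.lib, with a log2 difference of -0.53 ± 0.06 from CON_Ad.lib (edgeR adjusted p of 3.73e-05). For the mean of both risperidone groups its difference was -0.40 (edgeR adjusted p of 0.000172). With all libraries, the gene that passed among the markers of neurons, other glia and vessels was Gjb6, a gap junction gene of astrocytes, which fell to 88.7 CPM in RISP_PF, against 101 CPM in RISP_Ad.lib and 114 CPM in CON_Ad.lib, with a log2 difference of -0.36 from CON_Ad.lib (edgeR adjusted p of 0.00452). Gjb6 was also called for the mean of both risperidone groups (-0.265, edgeR adjusted p of 0.0263). Without RISP_Ad.lib_1 and RISP_Ad.lib_3 more markers passed, among them genes of oligodendrocytes, the myelin-forming cells. In RISP_Ad.lib against CON_Ad.lib Mal (0.44) and Mobp (0.42) were then called higher, and the median of the 10 oligodendrocyte markers was 0.32, against 0.12 with all libraries. Opalin was called in RISP_PF against CON_Ad.lib (0.65), and Opalin, Mal and Mog for the mean of both risperidone groups. Further markers called in that fit were Nptx1 of cortex and hippocampus in RISP_PF against CON_Ad.lib (-0.22) and the astrocyte gene Aldh1l1 between the risperidone groups (-0.18). For the mean of both risperidone groups they were Hcrt (-0.27) and Nr5a1 (-0.41) of the hypothalamus and the astrocyte gene Sox9 (0.27). Nfkbia passed between the risperidone groups as well (-0.28). None of these genes is specific to microglia, and in these bulk libraries the cell type in which they changed was not tested.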

How the data were processed

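Total RNA of 20 hypothalamus slices was sequenced as paired 150 bp reads. The authors deposited raw counts per gene, whole numbers that were not normalized. STAR, featureCounts and DESeq2 are named with GRCm38 and mm10, per the submitters' processing notes, while their versions, the annotation release and the strand setting are not given there. Identifiers of 55230 of 55471 genes matched a GRCm38 annotation, and 241, with 0.0035% of the counts, did not.

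Counts were tested with edgeR 4.0.16 (R 4.3.3), using TMM scaling, filterByExpr at a minimum count of 10 and 1 quasi-likelihood fit to all 20 libraries. It left 17893 genes, and p-values were two-sided and Benjamini-Hochberg adjusted over all of them within each of 4 comparisons, with a threshold of 0.05. Intervals cover 95%. Correlations used log2 CPM with a prior count of 2 and 100000 permutations within groups, two-sided. The test was checked on simulated counts. Alternatives were 2 scalings, 2 filters, DESeq2 1.42.0, limma-voom (limma 3.58.1), robust dispersions, a fit to the compared groups alone, a replicate block and left-out libraries, those without 2 or 3 libraries at once being added after seeing the data. Over the 57 pairs of libraries within groups, chi-square per degree of freedom was at least 2.64, so none was a copy.

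Members and gene lists were chosen with earlier results of these data known. Values per group are given for the 3 members with the smallest p in each comparison and for genes of the other lists that passed, and other members are described by means or ranges of differences. The genes standing out in RISP_PF_1 and Apoe, named as an example of another list, were chosen after their values were seen. 1 result is not reported here.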

Additional observations from a re-analysis of the deposited data

Results flagged for a closer look

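In 93 sets of values (each member and the sum of the members in each group), Dixon's test at the 95% level marked 9 single libraries as far from the rest of their group. Chance alone marks about 1 in 20 such sets, and 6 of the 9 were RISP_PF_1. The sets share libraries and the sum holds all members, so they are not independent. Whether 9 is more than chance gives was not tested.

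RISP_PF_1 was the highest RISP_PF library for P2ry12, at 24.67 CPM against 21.37 to 22.35 CPM in the others. In the same library Trem2 was 10.07 CPM against 6.96 to 8.07 CPM, Fcrls was 18.01 CPM against 10.36 to 12.19 CPM, and Ly86 was 16.0 CPM against 9.34 to 11.26 CPM. Fcer1g was 22.65 CPM there against 9.61 to 13.46 CPM, and Spi1 was 4.14 CPM against 1.85 to 2.31 CPM.

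The other marked values lay below their groups. P2ry13 was 4.06 CPM in CON_Ad.lib_2, against 5.59 to 6.68 CPM in the other CON_Ad.lib libraries. C1qa was 27.31 CPM in RISP_PF_3, against 31.84 to 34.45 CPM in the other RISP_PF libraries. Sall1 was 14.5 CPM in RISP_Ad.lib_6, against 19.01 to 20.42 CPM in the other RISP_Ad.lib libraries.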

How the results depend on the processing

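Under all 31 alternatives tried, 0 of 30 members passed the threshold in each of the 4 comparisons, and the 12 differences of named members kept their sign. The smallest adjusted p of any member under any alternative was 0.075, for RISP_PF against RISP_Ad.lib with DESeq2. It was 0.154 for RISP_PF against CON_Ad.lib, 0.119 for RISP_Ad.lib against CON_Ad.lib and 0.298 for the mean of both risperidone groups. The number of members above 0 ranged from 17 to 27 in RISP_PF against CON_Ad.lib, from 14 to 24 in RISP_Ad.lib against CON_Ad.lib and from 15 to 24 between the risperidone groups. The number of gene pairs with an adjusted permutation p under 0.05 for Pearson's r was 3, and from 2 to 5 when 1 library was left out, with 5 without RISP_Ad.lib_3. C1qa and C1qb passed under 7 of 23 alternatives and P2ry12 and P2ry13 under 2.

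Libraries of the same number were not paired by the data, since 2 of 19 such pairs correlated over 0.1 and 0 of 20 libraries correlated best with their own number. With replicate numbers as a block, 0 members passed in each comparison, and 4, 4, 5 and 2 members had an unadjusted p under 0.05 (RISP_PF and RISP_Ad.lib against CON_Ad.lib, RISP_PF against RISP_Ad.lib, and the mean of both).

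The intervals were widest for Aif1, Spi1 and Ptprc, which had 11 to 101 counts per library. They were narrower for Gpr34, with 24 to 101 counts, and for Itgam, with 22 to 78 counts. The cause was not tested.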
